A study of Caenorhabditis elegans with 18 samples.

Results

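The genes described here are 10 genes of synaptic vesicle release in *Caenorhabditis elegans*: *unc-13*, *unc-18*, *unc-64*, *snb-1*, *ric-4*, *snt-1*, *rab-3*, *unc-10*, *unc-31* and *unc-104*. They were picked by name from the 46726 genes counted in each library, not by any measured value, but with earlier results of these data known. All 10 passed the filter on low counts, as did 17560 genes in all. The data were 18 poly(A) RNA libraries of whole worms, synchronized and collected as L4 larvae, with 3 biological replicates (A, B and C) of each of 6 genotypes. In 2 genotypes *ceh-14* loss was combined with loss of *fust-1* (written *fust-1; ceh-14*) or of *tdp-1* (*tdp-1; ceh-14*), 3 carried 1 mutation (*tdp-1*, *fust-1* or *ceh-14*) and the last was wild type. In the study's strain list, *fust-1(csb21)* and *tdp-1(csb38)* are deletions that carry GFP markers under pharyngeal (*myo-2*) and body-muscle (*myo-3*) promoters, and *ceh-14(ch3)* is a deletion. The wild-type samples are labelled N2. *ceh-14* encodes a LIM homeodomain transcription factor, and *fust-1* and *tdp-1* encode RNA-binding proteins. The question put to these genes was whether losing a neuronally expressed transcription factor, an RNA-binding protein or both went with another level of the transcripts that neurons use to release transmitter.

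Neurons signal by fusing vesicles with the plasma membrane at presynaptic sites. Fusion is driven by SNARE proteins, one on the vesicle and a pair on the target membrane, which zipper together, and a set of further proteins brings vesicles to the membrane, readies them and couples fusion to calcium. These genes are transcribed in nearly all neurons of the worm, so that their summed RNA is often read as a sign of how much nervous system RNA a sample holds. In whole animals, fewer neurons and less RNA per neuron cannot be told apart.

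Library depth ranged from 19556372 to 119814176 counts in genes, and the members together received between 6931 and 41867 counts per library. The lowest single count was 75, for *unc-31* in wild type C. The targeted genes followed the labels: *tdp-1* averaged 14.9 ± 1.75 CPM (counts per 1000000, on library sizes scaled by trimmed mean of M values, TMM, over all 18 libraries; SD, n = 3 throughout) in *tdp-1* and 18.4 ± 4.26 CPM in *tdp-1; ceh-14*, against 93.7 ± 15.3 CPM in wild type. *fust-1* averaged 41.7 ± 7.92 CPM in *fust-1* and 48.3 ± 5.25 CPM in *fust-1; ceh-14*, against 156 ± 13.8 CPM in wild type. *ceh-14* lay at 0.675 to 2.47 CPM in the 9 libraries of its mutants, against 5.33 to 5.84 CPM in wild type, and reached down to 2.70 CPM in a *fust-1* library with no *ceh-14* mutation. These counts cover the whole gene and do not show which part was deleted. Of 10 other pan-neuronal markers, 9 averaged 1 CPM or more, so neuronal RNA was measurable in whole animals. Libraries differed in how counts were spread over short and long genes, and this touches every result on the long members. In *tdp-1; ceh-14* C, the median log2 deviation from the 18-library mean was -1.09 over the 739 genes with at least 4 kb of exons and 0.62 over the 4042 genes under 1 kb. The difference of these medians, long minus short, was -1.71 in *tdp-1; ceh-14* C, -1.07 in *fust-1* C and -0.44 in *tdp-1; ceh-14* B, and between -0.27 and 0.66 in the other 15 libraries.

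The members differed widely in level and in length. Per kb of merged exons (all annotated exon bases of a gene), *snb-1*, the vesicle SNARE synaptobrevin, stood highest at 234 ± 29.5 CPM per kb (SD over 18 libraries). It was followed by *unc-18*, the Sec1/Munc18 partner of syntaxin, at 20.7 ± 3.31, and by the target-membrane SNAREs *ric-4* (SNAP-25) at 15.04 ± 1.96 and *unc-64* (syntaxin) at 11.02 ± 1.18 CPM per kb. The vesicle-bound GTPase gene *rab-3* stood at 6.76 ± 1.17 and *snt-1*, which encodes the calcium sensor synaptotagmin, at 4.89 ± 0.611 CPM per kb. Lowest were the long genes: *unc-104*, the kinesin that carries vesicle precursors along axons, at 3.81 ± 0.880, the priming factor gene *unc-13* at 2.74 ± 0.756, *unc-10*, the active-zone scaffold RIM, at 1.21 ± 0.335, and *unc-31* (CAPS, needed for dense-core vesicle release) at 0.864 ± 0.203 CPM per kb. Each genotype mean gave this same order.

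**Figure D1:**
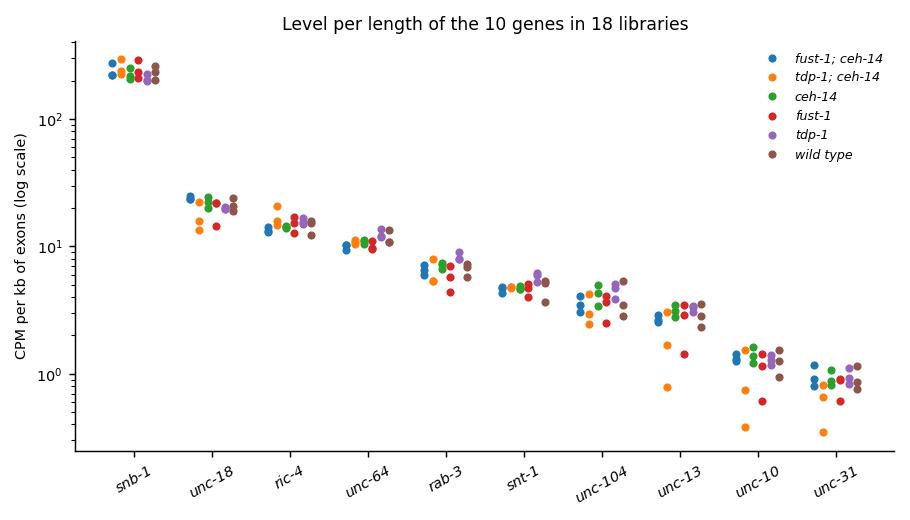
Level per length of the 10 genes on a log axis (CPM per kb of merged exons), 1 point per library and 1 colour per genotype. *snb-1* at 200 to 294 CPM per kb lies far above the others, and the lowest points of *unc-13*, *unc-10* and *unc-31* belong to *tdp-1; ceh-14*.

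Most neighbours in this order were apart in nearly every library. *snb-1* was above *unc-18*, *ric-4* above *unc-64*, *unc-64* above *rab-3*, *unc-104* above *unc-13*, *unc-13* above *unc-10* and *unc-10* above *unc-31* in all 18 libraries. *unc-18* exceeded *ric-4* in 16, *rab-3* exceeded *snt-1* in 17 and *snt-1* exceeded *unc-104* in 15 of 18. The 2 libraries in which *unc-18* was not above *ric-4* were *tdp-1; ceh-14* C and *fust-1* C. The order was the same with the longest annotated transcript as the length and with library totals as the scale.

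In the annotation (WBcel235), *unc-13* (WBGene00006752) lies on chromosome I at 7422785-7454116 with 11 transcripts and 6.86 kb of merged exons. *unc-104* (WBGene00006831) lies on chromosome II at 6994987-7010625 with 5.51 kb, *unc-31* (WBGene00006767) on chromosome IV at 12773867-12788354 with 5.24 kb and *unc-10* (WBGene00006750) on chromosome X at 7272317-7280322 with 4.95 kb of exons. The middle group holds *unc-18* (WBGene00006757, chromosome X, 7682896-7686037, 2.66 kb), *unc-64* (WBGene00006798, chromosome III, 13277258-13283887, 2.57 kb) and *snt-1* (WBGene00004921, chromosome II, 6810963-6816433, 1.93 kb). The short members are *rab-3* (WBGene00004267, chromosome II, 5721767-5727853, 1.46 kb), *ric-4* (WBGene00004364, chromosome V, 10261131-10270314, 1.24 kb) and *snb-1* (WBGene00004897, chromosome V, 6655562-6656501, 0.81 kb). Other genes share 7.53% of the exon bases of *rab-3* and 2.49% of those of *unc-64* (by *set-25*, on the opposite strand), and none of the other 8. Since no source used here states whether counting used strand, reads there cannot be given to one gene with certainty.

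No member was called in any of the 15 tests. With edgeR's quasi-likelihood test, 0 of 10 members had an adjusted p under 0.05 in each of 9 pairwise comparisons, 2 interactions, 3 effects averaged over backgrounds and the test of any difference among the 6 genotypes. None of these 150 member tests had an unadjusted p under 0.05 either. DESeq2 called none, and only *unc-104* in *tdp-1; ceh-14* against *tdp-1* had an unadjusted p under 0.05 with it. In the test across 6 genotypes, where 4.63% of all genes tested were called (15.3% by DESeq2, and 20.5% had an unadjusted p under 0.05 in edgeR), the adjusted p of the members ran from 0.366 for *unc-64* to 0.665 for *unc-10*. The sum over the members was 345 to 392 CPM in 17 libraries and 332 CPM in *tdp-1; ceh-14* B, but *snb-1* alone held 161 to 238 CPM of it. Without *snb-1* the sum was 183.0, 140.9 and 129 CPM in *tdp-1; ceh-14* and 174, 175 and 131 CPM in *fust-1*, against 198, 174 and 156 CPM in wild type. The lowest of these sums lay in libraries where the 10 other pan-neuronal markers were low too, at 139 CPM in *tdp-1; ceh-14* C and 180 CPM in *fust-1* C, against 252 to 370.3 CPM in wild type. Member and marker sums were both taken as counted, with no correction for how these libraries spread counts over short and long genes.

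**Figure D2:**
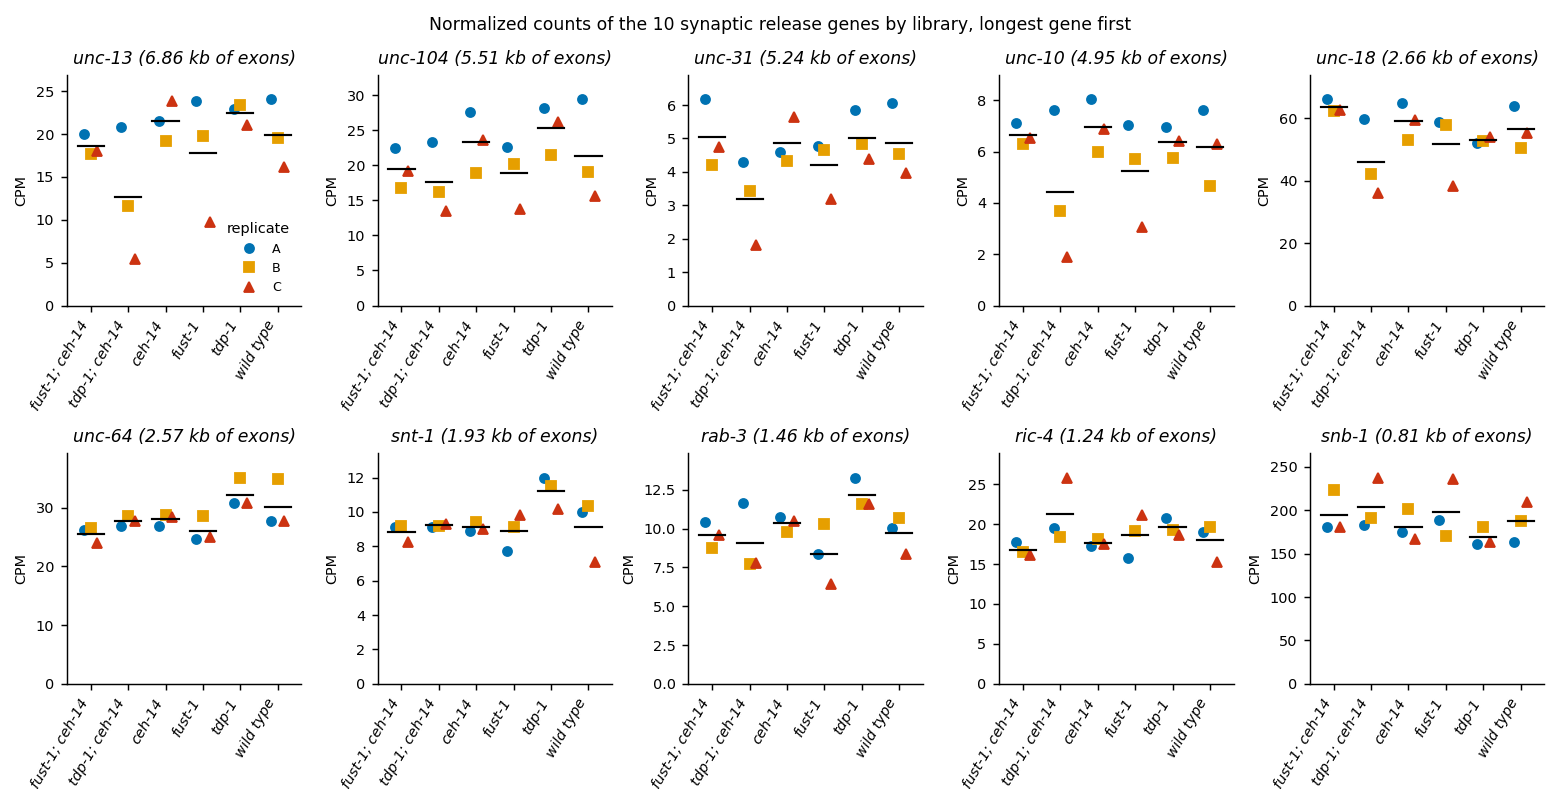
CPM of each gene in each library, longest gene first, with genotypes along the x axis, replicate letters as symbols and a bar at the genotype mean. In *unc-13*, *unc-10* and *unc-31* the lowest point is *tdp-1; ceh-14* C (5.40, 1.91 and 1.82 CPM), while *ric-4* and *snb-1* are highest in that library (25.8 and 238 CPM).

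The spread between replicates set the limit of these tests, and it was unequal among the members. The SD of log2 CPM within genotypes was 0.51 for *unc-10* and *unc-13*, 0.36 for *unc-31* and 0.34 for *unc-104*, against a median of 0.31 over 13681 genes with a mean of 1 CPM or more. It was 0.23 for *unc-18*, 0.22 for *rab-3*, 0.18 for *snb-1*, 0.17 for *ric-4*, 0.16 for *snt-1* and 0.11 for *unc-64*. *unc-64* was thus the steadiest member, and 97.0% of these genes had a larger SD.

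Between *ceh-14* and wild type no member differed beyond the spread of the libraries. *ceh-14* against wild type called 0 of 10, with 0.092% of all genes tested called (0.847% by DESeq2, and 4.03% at an unadjusted p under 0.05 in edgeR). *unc-13* had 21.5, 19.2 and 23.8 CPM in *ceh-14*, against 24.1, 19.5 and 16.1 CPM in wild type. *unc-64* had 26.96, 28.8 and 28.3 CPM in *ceh-14*, against 27.7, 34.8 and 27.7 CPM in wild type. For both genes the groups overlapped, as they did for all members, while 7.22% of all genes had no overlap. The log2 fold changes ran from -0.09 (*unc-64*) to 0.18 (*unc-10*), with a median of 0.04 beside -0.02 over all genes, and the 95% intervals reached from -0.53 to 0.78. With 1 library left out the median ran from -0.01 (without wild type C) to 0.16 (without wild type A). Averaged over 3 backgrounds (*fust-1*, *tdp-1* and no other mutation), *ceh-14* loss again called 0 of 10, with 2.11% of all genes tested called (5.14% by DESeq2, and 14% at an unadjusted p under 0.05 in edgeR), and a median of -0.07 beside -0.03. There the value with the lowest unadjusted p was that of *unc-64*, -0.12 ± 0.07 (standard error, adjusted p = 0.57).

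In *fust-1* no member passed the test either, and the long genes had wider error. *fust-1* against wild type called 0 of 10 (0.0184% of all genes, 0.196% by DESeq2, and 2.05% at an unadjusted p under 0.05 in edgeR). The groups of all members overlapped, beside 6.32% of all genes without overlap. *unc-13* had 23.8, 19.7 and 9.77 CPM in *fust-1*, against 24.1, 19.5 and 16.1 CPM in wild type. *unc-10* had 7.02, 5.72 and 3.04 CPM in *fust-1*, against 7.60, 4.66 and 6.28 CPM in wild type. Replicate C of *fust-1* was below every wild-type library for both genes, while A and B were inside the wild-type range. *rab-3* had 8.36, 10.3 and 6.43 CPM in *fust-1*, against 10.04, 10.7 and 8.39 CPM in wild type, again lowest in *fust-1* C. *snb-1* had 188, 170.1 and 235.4 CPM in *fust-1*, against 164, 188 and 209.8 CPM in wild type, and was highest in *fust-1* C. The log2 fold changes ran from -0.22 (*unc-10*) to 0.09 (*snb-1*). Their median was -0.16 beside 0.02 over all genes. With 1 library left out this median ran from -0.25 to 0.02 (without wild type A), and it was -0.03 without replicate C of *fust-1*.

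In *fust-1; ceh-14*, the target SNARE gene *unc-64* lay at the lower end of its range and *unc-18*, whose protein binds it, at the upper end. *unc-64* had 26.3, 26.5 and 23.9 CPM in *fust-1; ceh-14*, against 27.7, 34.8 and 27.7 CPM in wild type and 26.96, 28.8 and 28.3 CPM in *ceh-14*. All libraries of the double mutant were below all of both others, by a narrow margin for *ceh-14*, whose A library was next. The log2 fold change was -0.21 ± 0.14 against wild type (adjusted p = 0.67) and -0.15 ± 0.10 against *ceh-14* (adjusted p = 1), and -0.01 ± 0.18 against *fust-1*, where the groups overlapped. *unc-18* had 66.2, 62.4 and 62.7 CPM in *fust-1; ceh-14*, against 58.8, 57.9 and 38.4 CPM in *fust-1* and 63.9, 50.4 and 55.4 CPM in wild type. Its groups overlapped for wild type but not for *fust-1*, where the log2 fold change was 0.31 ± 0.22 (adjusted p = 0.832).

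None of these values passed the test, and the members without overlap were 1 of 10 in each of these comparisons. *fust-1; ceh-14* against wild type called 0 of 10, with 0.351% of all genes tested called (1.61% by DESeq2, and 8.83% at an unadjusted p under 0.05 in edgeR), a median of -0.01 beside -0.01 over all genes, and 14.5% of all genes without overlap. *fust-1; ceh-14* against *fust-1* called 0 of 10, with 0.0494% of all genes tested called (0.667% by DESeq2, and 5.04% at an unadjusted p under 0.05 in edgeR), a median of 0.06 beside -0.05, and 11.3% of all genes without overlap. *fust-1; ceh-14* against *ceh-14* called 0 of 10, with 0.0308% of all genes tested called (0.209% by DESeq2, and 2.25% at an unadjusted p under 0.05 in edgeR), a median of -0.09 beside -0.03, and 6.15% of all genes without overlap. The members thus stood near the background in all 3. The interaction of *fust-1* and *ceh-14* called 0 of 10 (0.0237% of all genes, 0.083% by DESeq2, and 1.83% at an unadjusted p under 0.05 in edgeR), with values from -0.10 (*ric-4*) to 0.29 (*unc-31*). *fust-1* loss over both backgrounds called 0 of 10 (0.0534%, 0.237% by DESeq2, and 3.63% at an unadjusted p under 0.05 in edgeR), with values from -0.22 (*unc-104*) to 0.10 (*snb-1*). These comparisons share libraries with each other and with those against wild type.

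**Figure D3:**
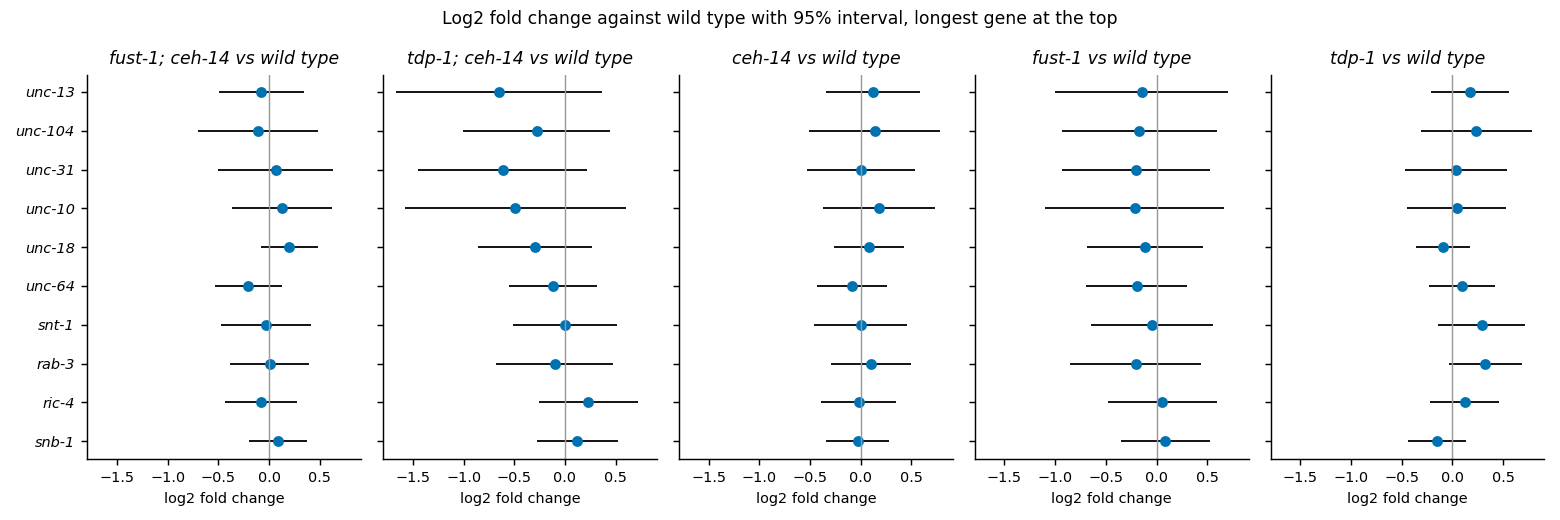
Log2 fold change of each gene (points) with its 95% interval (lines) in the 5 mutant genotypes against wild type, longest gene at the top. Every interval includes 0, and the intervals of *unc-13*, *unc-10* and *unc-31* are widest in *tdp-1; ceh-14* and in *fust-1*.

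In *tdp-1*, the vesicle genes *rab-3* and *snt-1* lay at the upper end of their range. *rab-3* had 13.3, 11.6 and 11.6 CPM in *tdp-1*, against 10.04, 10.7 and 8.39 CPM in wild type. All 3 *tdp-1* libraries were above all 3 wild-type libraries, with a log2 fold change of 0.32 ± 0.16 (95% interval -0.04 to 0.68, adjusted p = 0.299). *snt-1* had 12, 11.5 and 10.2 CPM in *tdp-1*, against 10.02, 10.4 and 7.07 CPM in wild type. Here the groups overlapped, since *tdp-1* C was below wild type B, and the log2 fold change was 0.29 ± 0.18 (adjusted p = 0.415). *rab-3* was the only member without overlap, 1 of 10 beside 27.3% of all genes, so the members did not stand out in this comparison. *tdp-1* against wild type called 0 of 10 (0.128% of all genes, 5.3% by DESeq2, and 19.2% at an unadjusted p under 0.05 in edgeR), with a median of 0.11 beside 0.01, and 0.04 (without wild type C) to 0.23 (without wild type A) with 1 library left out. *snb-1* was at -0.15 ± 0.13 and *unc-18* at -0.09 ± 0.12, the only members with a negative value. Intestinal markers summed to 2214, 2673 and 2688 CPM in *tdp-1*, against 1915, 1954 and 1828 CPM in wild type, and glial markers to 22.1, 20.8 and 21.4 CPM, against 18.4, 15.6 and 13.8 CPM. The intestinal and glial sums were higher in every *tdp-1* library, though only 3 of 6 glial markers averaged 1 CPM or more. The pan-neuronal markers summed to 303, 270 and 287 CPM in *tdp-1*, against 370, 252 and 276 CPM in wild type, so these groups overlapped. The part of tissue makeup in the values of *rab-3* and *snt-1* was not tested.

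The widest values came from *tdp-1; ceh-14*, where several of the long genes were low. *unc-13*, whose protein readies docked vesicles for fusion, had 20.9, 11.6 and 5.40 CPM in *tdp-1; ceh-14* A, B and C, against 24.1, 19.5 and 16.1 CPM in wild type. *unc-10* had 7.62, 3.69 and 1.91 CPM in *tdp-1; ceh-14*, against 7.60, 4.66 and 6.28 CPM in wild type. *unc-31* had 4.31, 3.44 and 1.82 CPM in *tdp-1; ceh-14*, against 6.07, 4.55 and 3.96 CPM in wild type. For all 3 genes, B and C of the double mutant were below every wild-type library and A was inside the wild-type range, or, for *unc-10*, just above it. *unc-104* had 23.3, 16.2 and 13.5 CPM in *tdp-1; ceh-14*, against 29.4, 19.1 and 15.6 CPM in wild type, and *unc-18* had 59.7, 42.1 and 35.99 CPM, against 63.9, 50.4 and 55.4 CPM. Replicate C was below every wild-type library for both, and B too for *unc-18*. Among the short genes replicate C was high in *ric-4* and *snb-1*: *ric-4* had 19.5, 18.3 and 25.8 CPM in *tdp-1; ceh-14*, against 19.02, 19.7 and 15.2 CPM in wild type, and *snb-1* had 184, 191 and 238 CPM, against 164, 188 and 209.8 CPM. *rab-3*, short as well, went against this, with 11.7, 7.75 and 7.78 CPM in *tdp-1; ceh-14*, against 10.04, 10.7 and 8.39 CPM in wild type, so that B and C were below every wild-type library. *unc-64*, of middle length, stayed within or just below the wild-type range, at 26.9, 28.6 and 27.7 CPM in *tdp-1; ceh-14*, against 27.7, 34.8 and 27.7 CPM in wild type.

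None of these differences passed the test. *tdp-1; ceh-14* against wild type called 0 of 10 (0.12% of all genes, 0.821% by DESeq2, and 7.72% at an unadjusted p under 0.05 in edgeR). The log2 fold change was -0.65 ± 0.45 for *unc-13* (95% interval -1.67 to 0.37), -0.61 ± 0.36 for *unc-31*, -0.49 ± 0.48 for *unc-10*, 0.23 ± 0.21 for *ric-4* and 0.12 ± 0.18 for *snb-1*, with adjusted p of 0.663 or more. The median of the members was -0.20, beside 0.00 over all genes. With the length trend of each library removed, an alternative that follows further on, *unc-13* was at -0.26, *unc-31* at -0.19 and *unc-10* at -0.18, while *unc-104* was at 0.25 and at -0.28 without removal. With the replicate letter as a block, *unc-13* was at -0.83 (adjusted p = 0.0604), and *unc-10* and *unc-31* had unadjusted p of 0.0399 and 0.0164. In that setting 3673 of 16680 genes tested had an unadjusted p under 0.05 and 3.93% were called. The groups of all members overlapped, beside 10.9% of all genes without overlap. Within replicate letters, *unc-13*, *unc-18*, *unc-31*, *unc-64* and *unc-104* were lower in *tdp-1; ceh-14* than in wild type in all 3 pairs and *snb-1* was higher in all 3. These 6 of 10 members with the same direction in each pair stand beside 44.6% of all genes.

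Set against the single mutants, the same libraries gave similar values. *tdp-1; ceh-14* against *ceh-14* called 0 of 10 (0.00594% of all genes, 0.243% by DESeq2, and 9.09% at an unadjusted p under 0.05 in edgeR), with a median of -0.30 beside 0.06. *unc-31* and *ric-4* were without overlap, 2 of 10 beside 18.5% of all genes. *unc-31* had 4.31, 3.44 and 1.82 CPM in *tdp-1; ceh-14*, against 4.60, 4.32 and 5.65 CPM in *ceh-14*. Its log2 fold change was -0.64 ± 0.34 (adjusted p = 0.437), and that of *unc-13* was -0.79 ± 0.43. *ric-4* had 19.5, 18.3 and 25.8 CPM in *tdp-1; ceh-14*, against 17.3, 18.1 and 17.5 CPM in *ceh-14*, a log2 fold change of 0.24 ± 0.20 (adjusted p = 0.539). The other 8 members overlapped, and the gap of *unc-31* was narrow, so the count is near that of all genes. The comparison had the *tdp-1; ceh-14* libraries in common with the one against wild type.

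*tdp-1; ceh-14* against *tdp-1* was the pair in which most genes were called, 3.67% of all genes (9.41% by DESeq2, and 22.1% at an unadjusted p under 0.05 in edgeR), and it too called 0 of 10 members. *unc-13* had 20.9, 11.6 and 5.40 CPM in *tdp-1; ceh-14*, against 22.9, 23.4 and 21.1 CPM in *tdp-1*. *unc-31* had 4.31, 3.44 and 1.82 CPM in *tdp-1; ceh-14*, against 5.84, 4.84 and 4.38 CPM in *tdp-1*. *snt-1* had 9.12, 9.21 and 9.32 CPM in *tdp-1; ceh-14*, against 12, 11.5 and 10.2 CPM in *tdp-1*. For each of them the double mutant lay wholly below *tdp-1*, as it did for *unc-64*, and for *snb-1* it lay wholly above, at 184, 191 and 238 CPM in *tdp-1; ceh-14*, against 161, 181 and 164 CPM in *tdp-1*. These 5 of 10 members without overlap stand beside 31.4% of all genes. The log2 fold changes were -0.83 ± 0.42 for *unc-13* (adjusted p = 0.27), -0.66 ± 0.32 for *unc-31* (0.262), -0.52 ± 0.23 for *unc-104* (0.236), -0.28 ± 0.15 for *snt-1* (0.294), -0.21 ± 0.14 for *unc-64* (0.369) and 0.28 ± 0.15 for *snb-1* (0.289), all from edgeR. This comparison turned on 1 library: without replicate A of *tdp-1; ceh-14*, 3 members were called, namely *unc-13* (-1.40, adjusted p = 0.0415), *rab-3* (-0.64, adjusted p = 0.0415) and *unc-104* (-0.77, adjusted p = 0.0417). That fit rests on *tdp-1; ceh-14* B and C, 2 of the 3 libraries low in long genes. The share of all genes called in it is not given here, so these 3 of 10 members have no background beside them.

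*rab-3* was an exception among the short members in this pair. It had 11.7, 7.75 and 7.78 CPM in *tdp-1; ceh-14*, against 13.3, 11.6 and 11.6 CPM in *tdp-1*. In the double mutant, B and C were below every *tdp-1* library, and A just overlapped 2 of them. The log2 fold change was -0.42 ± 0.21 (adjusted p = 0.26). The interaction of *tdp-1* and *ceh-14* was -0.52 ± 0.26 for *rab-3* and -0.94 ± 0.50 for *unc-13*, with 0 of 10 called (0.0405% of all genes, 0.416% by DESeq2, and 11.1% at an unadjusted p under 0.05 in edgeR). *tdp-1* loss over both backgrounds called 0 of 10 (0.156%, 6.61% by DESeq2, and 21.2% at an unadjusted p under 0.05 in edgeR), with values from -0.32 (*unc-10*) to 0.20 (*ric-4*).

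The deviations of the members were then set beside those of all genes of their length. In *tdp-1; ceh-14* C, the trend of log2 deviation on exon length over all genes was -1.31 at the length of *unc-13*, whose own deviation was -1.71, and -1.09 at that of *unc-31*, at -1.25. It was -1.05 at the length of *unc-10*, at -1.55, and 0.50 at the length of *snb-1*, at 0.34. In *fust-1* C the trend was -0.78 for *unc-13*, at -0.86, and 0.38 for *snb-1*, at 0.33. The long and the shortest members thus lay on the same side of 0 as genes of their length in these libraries. Some members departed from the trend: in *tdp-1; ceh-14* C, *unc-104* was 0.53 and *unc-64* 0.48 above it, and in *fust-1* C *rab-3* was 0.68 below it (a residual of -0.68). *rab-3* was also below the trend in *tdp-1; ceh-14* B (-0.35) and C (-0.36).

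**Figure D4:**
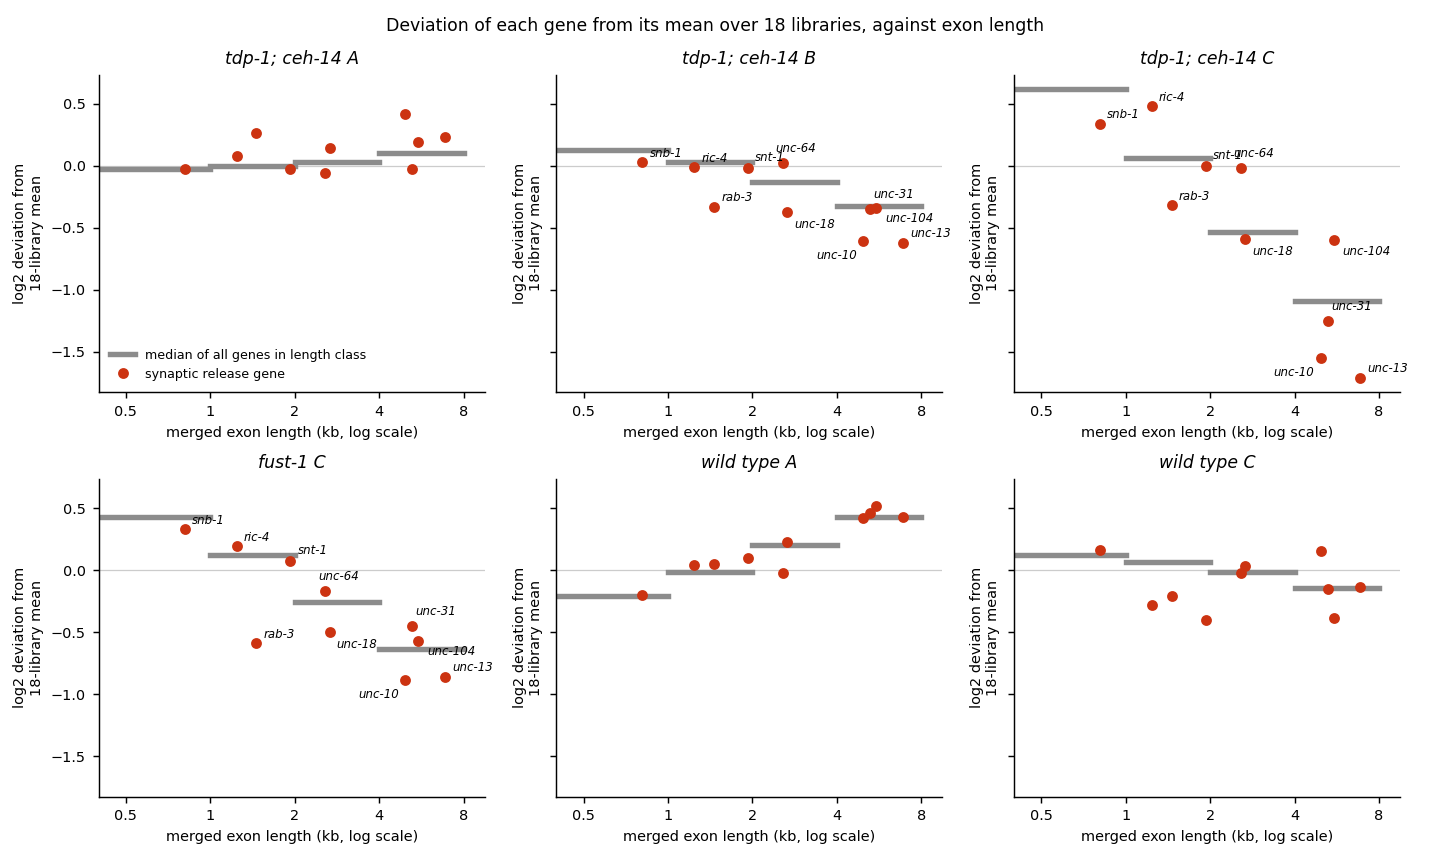
Log2 deviation of each gene from its 18-library mean (points) against merged exon length on a log axis, in 6 libraries, with the median of all genes in 4 length classes as grey bars. Genes are named in the 3 libraries where long genes were low. In *tdp-1; ceh-14* C the bars descend from 0.62 under 1 kb to -1.09 at 4 kb or more, and *unc-13* lies at -1.71, whereas in wild type A the bars ascend.

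Removing this trend from each library brought the fold changes of *unc-13*, *unc-31* and *unc-10* in *tdp-1; ceh-14* nearer to 0. That of *unc-104*, long as well, went from negative to positive against wild type and against *tdp-1*. Removal of the trend was an alternative added after the data had been seen. For *tdp-1; ceh-14* against *tdp-1*, *unc-13* was at -0.27, *unc-31* at -0.12, *unc-10* at -0.12 and *unc-104* at 0.11, and *snb-1* at 0.01. *rab-3* was at -0.45 (adjusted p = 0.206). For the interaction of *tdp-1* and *ceh-14*, *unc-13* was at -0.23 and *rab-3* at -0.56. The SD within genotypes was smaller after removal for 7 of 10 members, 0.19 for *unc-13* and 0.10 for *unc-18*, and larger for *unc-64* (0.21), *snt-1* (0.18) and *rab-3* (0.24), while the median over all genes was 0.26. No member was called after removal, in any of the 15 tests. Leaving out *tdp-1; ceh-14* C and *fust-1* C instead also called none, with *unc-13* at -0.47, *unc-31* at -0.38 and *rab-3* at -0.33 in *tdp-1; ceh-14* against *tdp-1*. What made long genes low in these libraries was not tested.

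**Figure D5:**
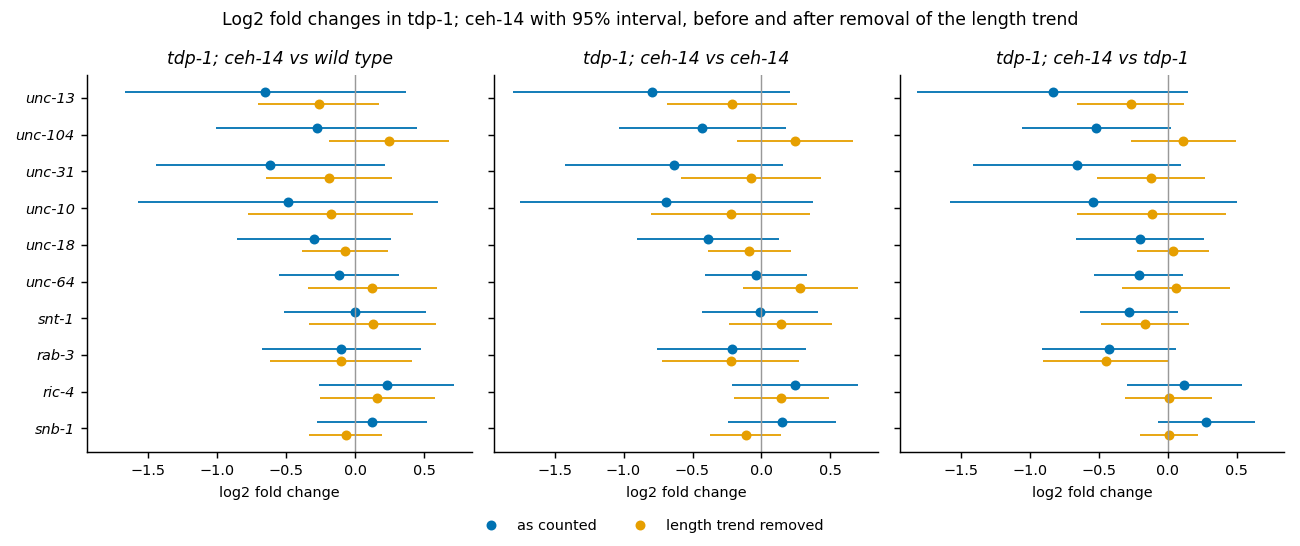
Log2 fold change and 95% interval of each gene in *tdp-1; ceh-14* against wild type, *ceh-14* and *tdp-1*, as counted (blue) and after removal of the length trend (orange), longest gene at the top. The orange points of *unc-13*, *unc-31* and *unc-10* lie nearer to 0, and that of *rab-3* against *tdp-1* stays at -0.45. The orange point of *unc-104* lies above 0 against wild type and against *tdp-1*, where the blue point lies below 0.

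Marker sums of several tissues stood apart in the same libraries. The summed level of the 10 pan-neuronal markers was 297, 207 and 139 CPM in *tdp-1; ceh-14* A, B and C and 366, 272 and 180 CPM in *fust-1* A, B and C, against 370, 252 and 276 CPM in wild type. Germline markers summed to 4227, 3557 and 2536 CPM in *tdp-1; ceh-14*, against 4740, 3551 and 4283 CPM in wild type. Body wall muscle markers summed to 9632, 6684 and 4857 CPM in *tdp-1; ceh-14*, against 9950, 6574 and 6311 CPM in wild type. Intestinal markers were lowest in *fust-1* C (1092 CPM) and *tdp-1; ceh-14* C (1186 CPM), and glial markers in the same libraries (7.03 and 6.56 CPM). Epidermal markers were highest in *fust-1* C (4508 CPM) and *tdp-1; ceh-14* C (4113 CPM). Sperm markers lay between 151 and 413 CPM, highest in *tdp-1; ceh-14* B, and those of the somatic gonad between 13.8 and 24.2 CPM. Against *ceh-14*, the pan-neuronal sum of *tdp-1; ceh-14* had no overlap, at 297, 207 and 139 CPM in *tdp-1; ceh-14*, against 382, 300.3 and 303 CPM in *ceh-14*. In that pair the epidermal sum was wholly higher, at 3206 to 4113 CPM in *tdp-1; ceh-14*, against 2877 to 3097 CPM in *ceh-14*, as was the sperm sum, at 297 to 413 CPM, against 151 to 293 CPM. Against *tdp-1*, 3 of these sums had no overlap in *tdp-1; ceh-14*: epidermal markers at 3206, 3291 and 4113 CPM in *tdp-1; ceh-14*, against 2658, 2689 and 3005 CPM in *tdp-1*, intestinal markers at 1900, 1686 and 1186 CPM, against 2214, 2673 and 2688 CPM, and glial markers at 13.4, 10.2 and 6.56 CPM, against 22.1, 20.8 and 21.4 CPM. Replicate letters differed as well: pharyngeal muscle markers summed to 303 to 402 CPM in the A libraries and 80.4 to 146 CPM in B and C, and long minus short was 0.13 to 0.66 in A. All these marker sums were taken as counted, without removal of the length trend, and its part in them was not tested. The part of tissue makeup in the values of the members was not tested. The letter was entered as a block in an alternative fit, in which 0 members were called.

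Across the 18 libraries the long members varied together. Pearson's r of log2 CPM, a description over libraries that share depth and length trend, was 0.94 for *unc-13* with *unc-10*, 0.93 for *unc-13* with *unc-31* and 0.93 for *unc-18* with *unc-10*, and -0.90 for *snb-1* with *unc-104*. After removal of the length trend these were 0.45, 0.46, 0.67 and -0.75. The r of *unc-10* with *unc-104* was 0.78 before removal and -0.61 after it. The genes whose log2 CPM was most like the mean standardized profile of the members, among 8543 genes with a mean of 10 CPM or more, were *lec-3* (r = 0.933, 2.66 kb of exons), *ttbk-7* (0.927, 2.60 kb), *tpa-1* (0.920, 2.89 kb), *soc-2* (0.917, 2.62 kb) and *ptp-1* (0.913, 3.77 kb). This mean profile is not that of every member: the r of a member with it was 0.918 for *rab-3* and 0.859 for *unc-104* but -0.117 for *ric-4* and -0.786 for *snb-1*.

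The release machinery around the members was read from 8 lists of 99 genes: regulators of SNAREs and priming, active zone and calcium channel, vesicle proteins and recycling, axonal transport, dense-core vesicle, G protein control of release, transmitter transporters and synthesis, and paralogs of the members. No gene of these lists was called in any of the 15 tests by edgeR as first fitted, without block or length trend. At unadjusted p under 0.05 there were between 0 and 13 genes per test, most of them in *tdp-1; ceh-14* against *tdp-1*, where 22.1% of all genes tested had such a p. In that pair the list medians ran from -0.66 for the 12 active zone and calcium channel genes (median exon length 4.01 kb) and -0.45 for the 10 G protein genes (3.48 kb) through -0.36 for the 11 dense-core vesicle genes (1.82 kb), -0.31 for the 13 vesicle and recycling genes (2.71 kb), -0.31 for the 9 axonal transport genes (2.90 kb) and -0.27 for the 7 SNARE and priming regulators (2.80 kb), to -0.07 for the 11 transporter and synthesis genes (1.92 kb) and 0.03 for the 26 paralogs (1.35 kb). After removal of the length trend, in the same order, they were -0.31, -0.22, -0.33, -0.17, -0.13, 0.02, 0.03 and -0.05, beside 0.02 over all genes as counted. The dense-core vesicle list thus had nearly the same median, and those of the other lists moved towards 0 or past it. DESeq2 called 2 of the 99 genes in this pair, *cla-1* and *aex-3*, beside 9.41% of all genes. It also called *arl-8*, a small GTPase gene of axonal transport, for *tdp-1* loss over both backgrounds (6.61% of all genes), and 4 in the test across 6 genotypes (15.3%), namely *cpx-2*, *aex-1*, *syx-16* and *vps-33.2*. None was called in the other 12 tests, and all these shares are below those of all genes. In the test across 6 genotypes, edgeR called 4 list genes with the replicate block (*aex-1*, *aex-3*, *cpx-2* and *egl-30*), beside 15.3% of all genes, and 2 after removal of the length trend (*aex-3* and *syx-16*), beside 6.61%.

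*cla-1*, which encodes the active zone protein clarinet and has 27.1 kb of exons, had 1.65, 1.24 and 0.866 CPM in *tdp-1; ceh-14*, against 3.57, 2.70 and 2.66 CPM in *tdp-1*. The groups did not overlap, as for 31.4% of all genes in this pair. The log2 fold change was -1.26 ± 0.29 (adjusted p = 0.0673 from edgeR, 0.00178 from DESeq2 and 0.0185 with the replicate block). After removal of the length trend it was -0.38 (adjusted p = 0.38). Without replicate A of *tdp-1; ceh-14* it was called in edgeR at -1.49 (adjusted p = 0.0333).

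*aex-3* encodes the guanine nucleotide exchange factor that loads RAB-3, and has 4.91 kb of exons. It had 9.26, 6.28 and 3.20 CPM in *tdp-1; ceh-14*, against 13.9, 13.7 and 13.9 CPM in *tdp-1*. In wild type it had 12.1, 9.57 and 8.44 CPM, so all *tdp-1* libraries were above wild type, as for *rab-3*, with a log2 fold change of 0.46 ± 0.17 (adjusted p = 0.208). Between *tdp-1* and wild type, 27.3% of all genes had no overlap. For *tdp-1; ceh-14* against *tdp-1* the log2 fold change was -1.15 ± 0.35 (adjusted p = 0.138). It was called by DESeq2 (adjusted p = 0.0242), with the replicate block (0.0387), after removal of the length trend (-0.68, adjusted p = 0.034 from edgeR, a setting with 5.74% of all genes called) and without replicate A of *tdp-1; ceh-14* (-1.54, adjusted p = 0.0335). Leaving out either other replicate of the double mutant gave no call, with -1.16 (adjusted p = 0.275) without B and -0.84 (adjusted p = 0.0854) without C.

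A short gene of the lists lay high in the other double mutant. *cpx-2*, which encodes a complexin, a clamp and activator of SNARE complexes, had 1.34, 1.51 and 1.65 CPM in *fust-1; ceh-14*, against 0.778, 0.565 and 0.422 CPM in wild type and 0.719, 0.897 and 0.760 CPM in *ceh-14*. All libraries of the double mutant were above all of both others. Of all genes, 14.5% had no overlap against wild type and 6.15% against *ceh-14*. *cpx-2* was at a low level, under 1 CPM in every library of wild type and *ceh-14*. The log2 fold change was 1.30 ± 0.30 against wild type (adjusted p = 0.235) and 0.90 ± 0.22 against *ceh-14* (adjusted p = 1), and 1.31 against wild type after removal of the length trend. Neither passed the test, and DESeq2 gave an adjusted p of 0.0918 against wild type. Outside these genes, *tdc-1*, which encodes the tyrosine decarboxylase of tyramine synthesis, was called after removal of the length trend (0.48 in *tdp-1; ceh-14* against *tdp-1*, adjusted p = 0.0415 from edgeR, 5.74% of all genes called). *unc-2*, a calcium channel gene, was called by edgeR with the replicate block (-1.05 in *tdp-1; ceh-14* against wild type, adjusted p = 0.0321, 3.93% of all genes called). After removal of the length trend, 0 list genes were called in *tdp-1; ceh-14* against wild type. With the length trend removed and the replicate block, edgeR called *ccb-1* for *ceh-14* loss over 3 backgrounds (adjusted p = 0.0423, 4.72% of all genes called). In that setting edgeR called *aex-3* (adjusted p = 0.0126), *syx-16* (0.0172), *cpx-2* (0.0268), *tdc-1* (0.0346), *aex-1* (0.0367) and *syx-2* (0.042) across 6 genotypes, beside 19.4% of all genes. It also called *arl-8* for *tdp-1* loss over both backgrounds (0.0334, 11.3%). For *tdp-1; ceh-14* against *tdp-1* it called *aex-3* (0.0191) and *tdc-1* (0.0362), beside 12.8%. Without *fust-1* C and *tdp-1; ceh-14* C, *ccb-1* was called for *ceh-14* loss (0.0244, 2.69%) and across 6 genotypes (0.0296, 5.57%). *aex-1* was called across 6 genotypes there too (0.0458).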

How the data were processed

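Each library was deposited as whole, unnormalized counts per gene. The authors had mapped paired reads of poly(A)-selected RNA to WBcel235 with STAR and made the counts with HTSeq. The setting for strand is not given in the sources used here. Tallies of unassigned records stayed out of totals (0.461% to 0.738% without a gene, 1.87% to 2.75% ambiguous, 5.89% to 12.2% at several positions).

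Gene names came from the reference table (43623 of 46726 genes had one). Each comparison was fitted to its own genotypes in R 4.3.3 with edgeR 4.0.16 (filterByExpr, TMM factors, quasi-likelihood test, Benjamini-Hochberg over all genes tested, called at adjusted p under 0.05). Each standard error was the size of the log2 fold change divided by the root of its F value. Log2 deviations used a prior count of 2. Exon lengths, from the Ensembl annotation of WBcel235, were found for 99.2% of genes. The length trend is a lowess curve per library (span 0.5) over genes with a mean of 1 CPM or more, entered as an offset in edgeR. Alternatives were DESeq2 1.42.0, its size factors, no filter, a block for the replicate letter, one joint fit of the libraries and leaving out each library in turn, and, added later, removal of the length trend and leaving out 2 libraries. The tests were tried on simulated counts first. No library repeated another (chi-square per degree of freedom of 25.8 or more between libraries of a genotype).

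The letter pairs libraries by the correlation of their deviations, over 0.1 for all 3 letters in 6 of 9 comparisons. The other 3, all with *fust-1; ceh-14*, did not meet this, while every pair with *tdp-1; ceh-14* did. By mean correlation with libraries of other genotypes, 15 of 18 libraries were most like their own letter. The main tests did not use the letter, and no source says what it marks.

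Members, all described, and lists were chosen with earlier results of these data known. Of list genes the text names those called under some setting other than leave-one-out, and some with the lowest p. The 8 lists and 9 marker lists came from general knowledge. Precision is limited by 3 replicates per genotype. The p-values weigh each difference against the spread between libraries that its fit leaves unexplained.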

Additional observations from a re-analysis of the deposited data

How the results depend on the processing

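The number of members called was 0 under all settings run except leave-one-out, where it ranged from 0 to 3 in *tdp-1; ceh-14* against *tdp-1* (3 without replicate A of *tdp-1; ceh-14*) and was 0 in the other 14 tests. The share of all genes called without that library is not given here. The replicate block called 0 members in all 15 tests and gave 12 of 150 an unadjusted p under 0.05. For *tdp-1; ceh-14* these were 3 of 10 against wild type (beside 3673 of 16680 genes tested), 2 against *ceh-14* (3845 of 16846) and 3 against *tdp-1* (4492 of 16849). The interaction of *tdp-1* and *ceh-14* had 3 (3487 of 17305) and *fust-1; ceh-14* against *ceh-14* had 1 (792 of 16258). Across 6 genotypes there were 0 of 10 members beside 6333 of 17560 genes. The median log2 fold change of the members, -0.35 in *tdp-1; ceh-14* against *tdp-1*, was -0.054 after removal of the length trend, -0.059 with that and the replicate block, and -0.54 to -0.25 with 1 library left out. Against *ceh-14* it was -0.30, and -0.082, -0.073 and -0.54 to -0.18 in these settings. For the interaction of *tdp-1* and *ceh-14* it was -0.39, and -0.017, -0.015 and -0.62 to -0.31, and for *tdp-1; ceh-14* against wild type it was -0.20, and -0.072, -0.075 and -0.46 to -0.11. The drop after removal of the trend follows from its construction where long members lead the median, and the cause of the other changes was not tested. Without *fust-1* C and *tdp-1; ceh-14* C no member was called, and *unc-13* was at -0.47 in *tdp-1; ceh-14* against *tdp-1*. The order of the 10 members per length was the same under both alternatives. Counts over all genes moved more: against edgeR, DESeq2 called over 1.5 times as many genes in 15 of 15 tests (137 against 20 in *tdp-1; ceh-14* against wild type) and the replicate block in 12 of 15 (655 in that pair). The median of all genes shifted by at most 0.03 between TMM and DESeq2 size factors. With 3 replicates, the 95% intervals of the members in *tdp-1; ceh-14* against wild type reached 0.40 (*snb-1*) to 1.09 (*unc-10*) to either side on the log2 scale. Differences of that size could be missed. Larger ones could go uncalled too, since a call needed an adjusted p under 0.05.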
